A study of Mus musculus musculus x M. m. domesticus and Mus musculus musculus x Mus musculus castaneus and Mus musculus domesticus with 42 samples.

Results

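The 5 genes described here, Moxd1, Tff3, Mrap, Glyctk and Dntt, have a liver signal that is very low in some house mouse subspecies and high in another. They were chosen by their symbols, from the parental liver signals, and the arrays carry 9 probe sets whose only platform symbol is 1 of the 5, of 45037 probe sets and 18193 symbols in all. Brain, liver and testis of 14 males were measured on 42 Affymetrix arrays, 1 array per male and tissue, with 2 males for each of 7 genotypes. The genotypes are 4 reciprocal F1 hybrids, written with the mother first, and the wild-derived inbred subspecies they came from. Ages were 53 days in the musculus x castaneus F1, 54 in the castaneus x musculus F1, 53 in the musculus x domesticus F1 and 50 in the domesticus x musculus F1. The parents were Mus musculus castaneus at 47 days, M. m. domesticus at 45 and M. m. musculus at 47. Males of a genotype had the same age, so age and genotype cannot be told apart, except between castaneus and musculus and between the F1 with a musculus mother, whose ages were equal. The labels name separate males but not whether they were littermates, so p-values measure the spread between these males.

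The genes have little in common in their known roles. Moxd1 encodes a copper-dependent monooxygenase of the dopamine beta-hydroxylase family. Tff3 is a secreted trefoil peptide best known from goblet cells of the gut, and Mrap is the accessory protein that brings the ACTH receptor Mc2r to the cell surface in adrenal and fat cells. Glyctk is glycerate kinase, a liver enzyme of serine and fructose breakdown. Dntt, terminal deoxynucleotidyl transferase, adds untemplated bases at the joints of antigen receptor genes in lymphocyte precursors. An F1 male carries 1 autosomal gene copy from each subspecies, so its transcript level can be placed midway between the parents or nearer to one of them.

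Signals are the deposited MAS5 values on a linear scale. A signal of 31, the 20th percentile of all values in the table, marks the low end, and the place of a signal among all probe sets of its array is given as a percentile. Differences are log2(signal + 31), which understates them where a signal is low. The parental liver values chose the genes, so they are described with no test. Calls come from limma fits over 27022 probe sets per tissue with Benjamini-Hochberg adjustment, two-sided, at an adjusted p under 0.05. Tissue dependence was fitted over the 22347 probe sets shared by liver and brain and the 22190 shared by liver and testis, and an exact permutation test over males was added for single probe sets. Of the 9 probe sets, 8 passed the filter on low mean signal in liver, 2 in brain and 4 in testis. A gene can pass that filter through the genotype in which it is high.

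The samples matched their tissue labels. The 8 hepatocyte genes, such as Alb and Apoa1, summed to 151841 to 219831 in liver, 12423 to 17856 in brain and 436 to 3792 in testis. Replicates correlated with Pearson's r of 0.958 to 0.981 over all probe sets. A single liver array stood apart in the 5 exocrine pancreas genes, whose sum was 56239 in musculus x castaneus F1 male 2 and 1111 to 9488 on the other 13 liver arrays. In bulk tissue, fewer cells of a type and less RNA per cell cannot be told apart.

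The label of genes silent in a subspecies held only in part. Signals lay below 31 in both males for Moxd1 in musculus, for Mrap in castaneus and for Dntt probe set 1449757_x_at in castaneus. Tff3 was low in domesticus and in castaneus but never near the floor, and Glyctk was low in musculus on only 1 of its 2 probe sets. They are therefore called by their names and not as silent genes.

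**Figure D1:**
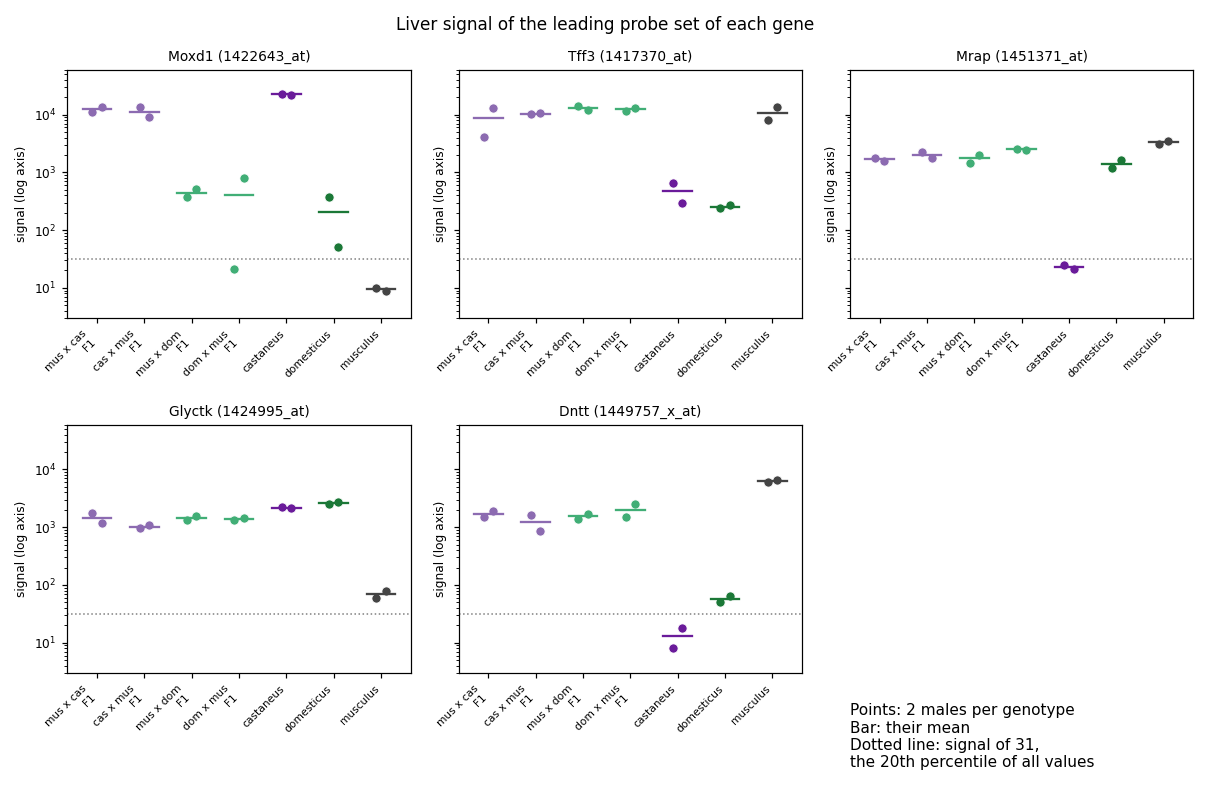
Liver signal on a log axis for the probe set of each gene with the largest parental difference, with 1 point per male, a bar at the mean of the 2 males and a dotted line at a signal of 31. Moxd1 reached 22580 and 22183 in castaneus and 10 and 9 in musculus, and the 8 F1 males of both crosses had 854 to 2503 for Dntt, between the parents.

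Moxd1 had a high liver signal in castaneus and one below the floor in musculus. Its only probe set, 1422643_at, had 22580 and 22183 in the 2 castaneus males, 368 and 51 in the domesticus males and 10 and 9 in the musculus males. The castaneus values lay above 99.4% or more of their arrays and the musculus values at the 6.71 and 6.58 percentile, while the domesticus males differed widely from each other. The log2 difference was 9.11 ± 0.939 (SE) for castaneus minus musculus and 2.16 for domesticus minus musculus. With musculus below the floor, the size of both depends on the offset.

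F1 males that carried a castaneus genome had high Moxd1. The signals were 11278 and 13751 in musculus x castaneus F1 and 13553 and 9015 in castaneus x musculus F1, against 379 and 517 in musculus x domesticus F1 and 21 and 801 in domesticus x musculus F1. All 4 castaneus-cross F1 lay above all 4 domesticus-cross F1, and domesticus x musculus F1 male 1 lay below the floor of 31. All 8 males share a musculus genome, and none of their arrays chose the genes, so this difference could be tested. The castaneus-cross F1 were higher by 5.23 ± 0.664 on the log2 scale (SE, n = 4 each, limma adjusted p = 0.000936), higher in 4 of 4 males. The exact permutation test of 4 against 4 males gave p = 0.0286 (two-sided), the smallest it can give. In this comparison 3.45% of all probe sets were called. The difference was 4.23 without domesticus x musculus F1 male 1 and 5.16 without the F1 male with the high pancreas sum, both still called.

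Moxd1 was present at lower signal in brain and near the floor in testis. Brain signals were 356 and 502 in musculus x castaneus F1, 385 and 374 in castaneus x musculus F1, 258 and 258 in musculus x domesticus F1 and 287 and 323 in domesticus x musculus F1. The castaneus-cross males were again the higher ones, but the difference of 0.47 ± 0.136 was not called (adjusted p = 0.122), where 1.58% of probe sets were called. The parents had 351 and 466 in castaneus, 387 and 351 in domesticus and 235 and 233 in musculus. Castaneus minus musculus was 0.72 ± 0.192 with an adjusted p = 0.0503 and domesticus minus musculus 0.59 ± 0.192 with an adjusted p = 0.112, where 6.07% and 5.75% of probe sets were called. The castaneus difference lies at the threshold: it was called with an offset of 10 (adjusted p = 0.0485), with no intensity trend (adjusted p = 0.0439) and with a replicate block (adjusted p = 0.0419). Leaving out castaneus male 1 (adjusted p = 0.0496) or either musculus x castaneus F1 male (adjusted p = 0.0387 and 0.0393) gave a call too. Thus musculus brain, unlike musculus liver, had a Moxd1 signal well above 31. The F1 difference of Moxd1 was larger in liver than in brain by 4.76 ± 0.579 (limma over all 42 arrays with the male as a block, adjusted p = 5.98e-06), where 2% of 22347 probe sets were called. The choice of Moxd1 on parental livers favours a larger difference in liver. In testis 14 of 14 signals were below 31, from 5 to 25, and Moxd1 was not tested there.

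Tff3 was high in musculus liver and in every F1. Its probe set, 1417370_at, had 4078 and 13089 in musculus x castaneus F1, 10267 and 10616 in castaneus x musculus F1, 14342 and 12002 in musculus x domesticus F1 and 11735 and 13265 in domesticus x musculus F1. The parents had 644 and 294 in castaneus, 239 and 273 in domesticus and 8035 and 13621 in musculus. The F1 overlapped musculus and lay well above the castaneus and domesticus males, which sat at the 64.8 to 80.7 percentile of their arrays, far from the floor. The parental log2 difference was -4.49 for castaneus minus musculus and -5.19 for domesticus minus musculus. Musculus x castaneus F1 male 1 had the lowest F1 signal, with a pancreas sum of 3641, inside the range of the other livers. Male 2 of that F1, with the pancreas sum of 56239, had the highest signal of the castaneus cross (13089).

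The F1 of the 2 crosses did not differ in Tff3 beyond their spread. Castaneus-cross minus domesticus-cross was -0.55 on the log2 scale with a 95% interval from -1.23 to 0.14 (limma adjusted p = 0.428). In brain Tff3 ranged from 49 to 252 over 14 males and in testis from 23 to 289, so no male of those tissues reached the lowest liver F1. Brain differences of -0.42 in castaneus and -0.78 in domesticus from musculus were not called (adjusted p = 0.666 and 0.373).

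Mrap was low in castaneus liver alone among the parents. Probe set 1451371_at had 25 and 21 in castaneus, 1177 and 1667 in domesticus and 3144 and 3481 in musculus, which do not overlap. The log2 difference from musculus was -5.95 in castaneus and -1.22 in domesticus. The F1 had 1782 and 1563 in musculus x castaneus F1, 2288 and 1780 in castaneus x musculus F1, 1471 and 2038 in musculus x domesticus F1 and 2552 and 2439 in domesticus x musculus F1. All 8 F1 lay below both musculus males and above both castaneus males.

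The 2 crosses overlapped in Mrap although castaneus and domesticus did not. The castaneus-cross F1 averaged 1853 ± 308 and the domesticus-cross F1 2125 ± 489 (SD, n = 4 each), a log2 difference of -0.18 with a 95% interval from -0.51 to 0.16 (limma adjusted p = 0.636). The other Mrap probe set, 1451966_at, had 1 to 36 in liver, 1 to 25 in brain and 2 to 15 in testis, with a highest value near the floor in every tissue, so it carried no liver difference and did not pass the filter. For 1451371_at brain signals were 10 to 75. Testis signals were 35 to 426 and no parental difference was called there, with 0.82 in castaneus and 0.83 in domesticus against musculus (adjusted p = 0.424 and 0.437).

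Glyctk was low in musculus liver on a single probe set. Probe set 1424995_at had 1744 and 1164 in musculus x castaneus F1, 953 and 1084 in castaneus x musculus F1, 1328 and 1593 in musculus x domesticus F1 and 1314 and 1440 in domesticus x musculus F1. The parents had 2240 and 2125 in castaneus, 2546 and 2735 in domesticus and 60 and 80 in musculus. Every F1 lay between musculus and the other subspecies with no overlap. The log2 difference from musculus was 4.46 in castaneus and 4.73 in domesticus. The F1 of the 2 crosses overlapped, with a castaneus-cross minus domesticus-cross difference of -0.23 and a 95% interval from -0.55 to 0.09 (adjusted p = 0.499).

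The other Glyctk probe set gave musculus liver an ordinary signal. Probe set 1424994_at had 848 and 2293 in castaneus, 687 and 1201 in domesticus and 778 and 900 in musculus, and 546 to 1631 in the 8 F1, all overlapping. Its log2 difference from musculus was 0.72 in castaneus and 0.12 in domesticus. Over the 14 livers the 2 probe sets correlated with Pearson's r of 0.167 (log2 values, as a description), against 0.921 to 0.97 among the 3 Dntt probe sets. The platform table gives both Glyctk probe sets the same source sequence. A part of sequence differences under the probes was not tested.

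Testis, which did not choose the gene but came from the same males whose livers did, showed the same probe set lower in musculus. Glyctk 1424995_at had 544 and 410 in castaneus, 378 and 473 in domesticus and 75 and 24 in musculus, with no overlap. It was higher by 2.72 ± 0.341 in castaneus (adjusted p = 0.000112) and by 2.57 ± 0.341 in domesticus (adjusted p = 0.000174), each in 2 of 2 males. Both comparisons share the musculus arrays, and 13.5% and 12.8% of probe sets were called in them, and 1 of the 4 tested member probe sets was called each time. The other probe set, 1424994_at, had 282 and 326 in castaneus, 234 and 331 in domesticus and 165 and 170 in musculus, with differences of 0.75 and 0.64 (adjusted p = 0.0602 and 0.114). In brain 1424995_at had 180 and 116 in castaneus, 105 and 127 in domesticus and 64 and 79 in musculus, too low for the filter.

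**Figure D2:**
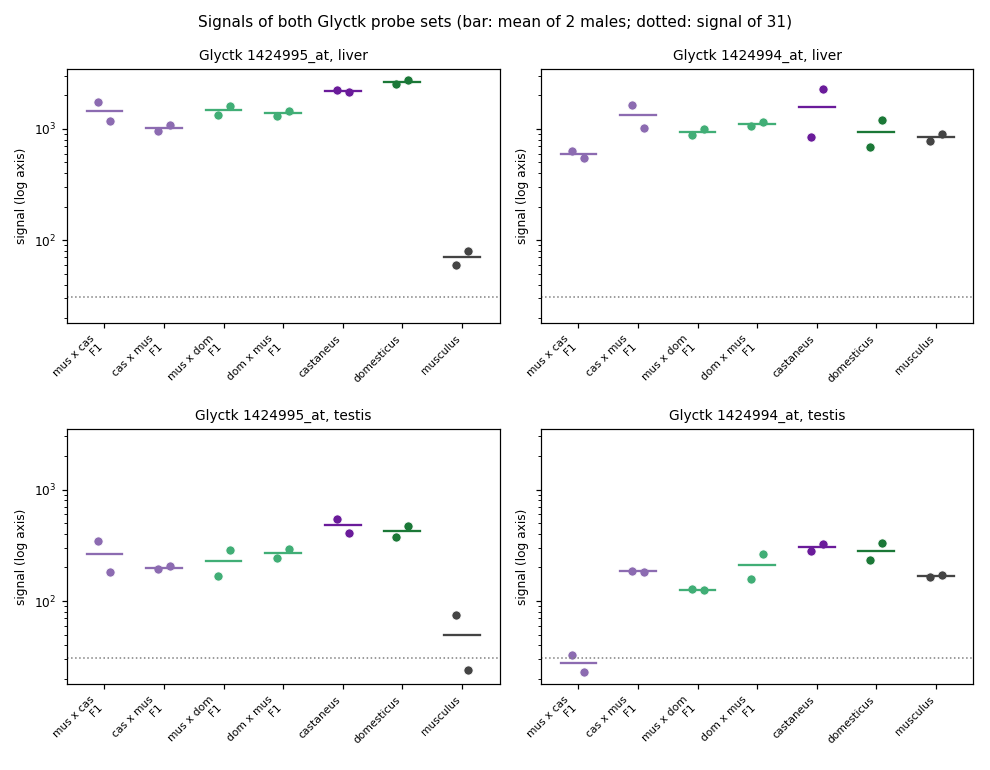
Signals of both Glyctk probe sets in liver (top) and testis (bottom) on a log axis, with 1 point per male and a bar at the mean of 2. For 1424995_at musculus is lowest in both tissues (60 and 80, 75 and 24). For 1424994_at it is not the lowest genotype. By mean, musculus is the lowest parent on 1424994_at in liver (839), where the parents overlap, and in testis (165 and 170). On that probe set the musculus x castaneus F1 testes are at 33 and 23.

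The musculus x castaneus F1 had the lowest testis signals on 1424994_at. Signals were 33 and 23 in musculus x castaneus F1, 187 and 184 in castaneus x musculus F1, 127 and 125 in musculus x domesticus F1 and 159 and 262 in domesticus x musculus F1. The castaneus-cross F1 were lower than the domesticus-cross F1 by -0.77 ± 0.174 (adjusted p = 0.00636), in a comparison in which 23.9% of probe sets were called. With the castaneus x musculus F1 alone (added once the values were known) the difference turned to 0.17 (adjusted p = 0.722) and 3.82% were called, so the call rests on the musculus x castaneus F1. On 1424995_at those F1 had 348 and 182 in testis, within the range of the other F1 apart from its upper end, and the difference between the crosses was -0.10 (adjusted p = 0.815).

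Dntt was high in musculus liver and low in both other subspecies. On 1449757_x_at, the probe set with the largest difference, castaneus males had 8 and 18, domesticus males 51 and 64 and musculus males 5961 and 6474. On 1450545_a_at castaneus had 103 and 103, domesticus 231 and 180 and musculus 5505 and 9140. On 1420166_at castaneus had 39 and 7, domesticus 31 and 59 and musculus 784 and 1100. All 3 probe sets put musculus far above both, by log2 differences of -4.22 to -7.16 for castaneus minus musculus and -3.68 to -6.14 for domesticus minus musculus. The suffix _x_at marks probes that can also match other transcripts, and the agreement of the 3 probe sets is given as a description.

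Every F1 expressed Dntt at a level between the parents. On 1449757_x_at the signals were 1533 and 1918 in musculus x castaneus F1, 1651 and 854 in castaneus x musculus F1, 1382 and 1715 in musculus x domesticus F1 and 1503 and 2503 in domesticus x musculus F1. On 1450545_a_at they were 1217 and 1054 in musculus x castaneus F1, 1347 and 784 in castaneus x musculus F1, 1241 and 2292 in musculus x domesticus F1 and 1391 and 2545 in domesticus x musculus F1. The crosses overlapped on each probe set. The castaneus-cross minus domesticus-cross difference was -0.27 on 1449757_x_at (95% interval -0.74 to 0.20), -0.42 on 1420166_at (-1.08 to 0.24) and -0.71 on 1450545_a_at (-1.26 to -0.15), with limma adjusted p = 0.6, 0.552 and 0.171. None passed over all probe sets, although the last interval did not reach 0.

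Lymphocyte markers were compared beside Dntt. The 8 lymphocyte genes with a probe set, among them Cd3e, Cd79a and Ptprc, summed to 762 to 1194 in the F1, 1040 to 1196 in castaneus, 1124 to 1261 in domesticus and 1059 to 1166 in musculus. Of these 8 genes, 5 lay at or above 31 on all 14 livers (Ptprc, Cd3e, Cd3g, Cd79a and Ms4a1), and Cd3d lay below 31 on all 14. Of the 8 genes of lymphoid precursors and thymocytes, which summed to 8822 to 13870 in the F1, 7116 to 10042 in castaneus, 13444 to 13507 in domesticus and 8574 to 11957 in musculus, most of the sum was Cd1d1, with 6333 to 12789. Of these 8 genes, 4 lay at or above 31 on all 14 livers: Cd1d1, Igll1 (98 to 315), Ptcra (62 to 254) and Cd8a (284 to 745). Cd4 had 30 to 172. The recombinase genes Rag1 (1 to 17) and Rag2 (6 to 33) and the pre-B receptor gene Vpreb1 (7 to 61) stayed near the floor in every liver, those of musculus included. Dntt was near the floor in most brains and testes too: 1449757_x_at had 8 to 60 in brain and 6 to 52 in testis. On 1450545_a_at testis had 85 to 179 and no parental difference was called (0.25 in castaneus and -0.18 in domesticus, adjusted p = 0.596 and 0.736).

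**Figure D3:**
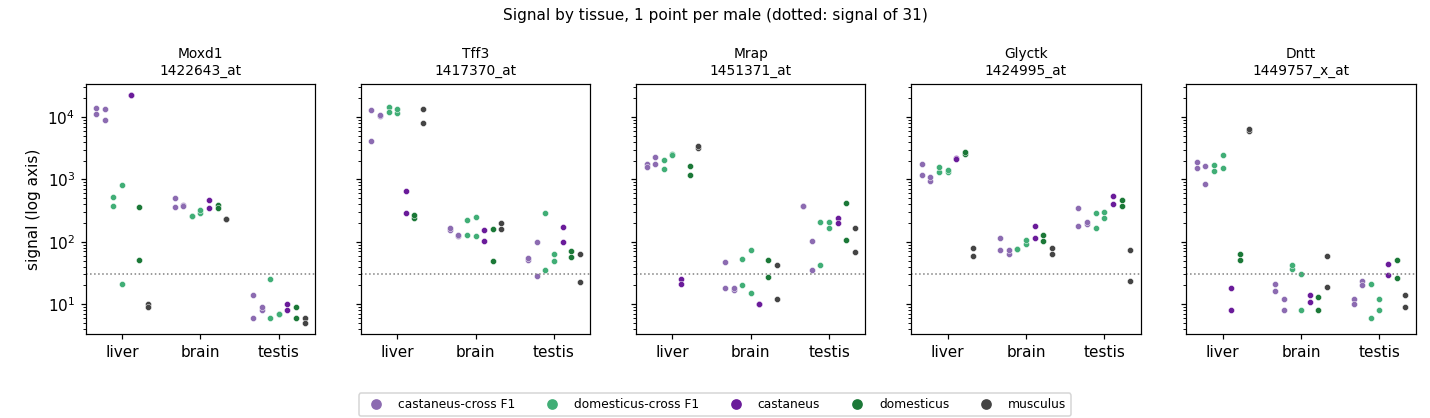
Signals of the 5 leading probe sets in liver, brain and testis on a log axis, with 1 point per male. Tff3, Mrap and Dntt have their high values in liver only, Moxd1 is at 233 to 502 in every brain and 5 to 25 in every testis, and Glyctk is lowest in musculus in liver and testis.

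The place of the F1 between their parents differed among the genes. Dosage is the F1 signal as a percent of the way from the mean of the lower parent to the mean of the higher one on the linear scale, so that 50% is the midparent. It was computed where the parents of a cross differed by at least 2 on the log2 scale, and the parents' values chose the genes, so it has no test. For Moxd1 the castaneus-cross F1 reached 53.1% ± 9.95 (SD, n = 4), from 40.3% to 61.4%, close to the midparent. For Mrap they reached 55.6% ± 9.35, from 46.8% to 68.9%. For Glyctk 1424995_at the castaneus-cross F1 reached 55.2% ± 16.5 and the domesticus-cross F1 52.5% ± 5.02. The means of these 3 genes lay within 1 SD of 50%.

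The mean dosages of Tff3 and Dntt lay away from the midparent on opposite sides, for Tff3 in the castaneus cross with a wide spread. Tff3 had 87.3% ± 37 in the castaneus-cross F1, from 34.8% to 122%, and 119% ± 11.4 in the domesticus-cross F1, from 109% to 133%, so all 4 domesticus-cross males exceeded the musculus mean. In the castaneus cross 1 of the 4 males lay below 50%, and the mean ran from 68.8% to 120% with single males left out. The musculus males themselves differed, and leaving out either one moved the domesticus-cross value to between 94.1% and 162%. Dntt had 23.8% ± 7.3 in the castaneus-cross F1 and 27.9% ± 8.18 in the domesticus-cross F1 on 1449757_x_at. On 1450545_a_at the castaneus-cross F1 had 13.8% ± 3.36 and the domesticus-cross F1 23.3% ± 9.1, and on 1420166_at the castaneus-cross F1 had 17.1% ± 7.3 and the domesticus-cross F1 23% ± 10.6. All 8 F1 males were below 50% on all 3 Dntt probe sets, the highest at 39.7%, in either direction of either cross.

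The scale changes this reading for Dntt. On the log2 scale the same F1 lay 46.9% to 70.7% of the way up, around or above the midparent, and Moxd1, Mrap and Glyctk lay at 81.1% to 89.8%. For Moxd1 in the domesticus cross the parents were too low and too unlike each other for a useful dosage: it came to 210% ± 162, and to 1010% without domesticus male 1.

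Among all liver probe sets called between the parents with a difference of at least 2, the median dosage was 48.4% in the castaneus cross (390 probe sets, quartiles 30.2% and 62.7%) and 48.5% in the domesticus cross (383 probe sets, quartiles 35.2% and 60.4%). Of these, 14.6% and 15.7% lay at or below Dntt 1449757_x_at, and 7.18% and 10.7% at or below 1450545_a_at, in the castaneus and domesticus cross. Of the same probe sets, 93.8% and 99.2% lay at or below Tff3. In the castaneus cross that share was 59.7% for Moxd1, 64.1% for Mrap and 62.6% for Glyctk. In the domesticus cross it was 59.3% for Glyctk and 99.7% for Moxd1, whose dosage there cannot be read. The called share of all probe sets was 6.55% for castaneus minus musculus, 6.17% for domesticus minus musculus and 6.12% for castaneus minus domesticus.

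**Figure D4:**
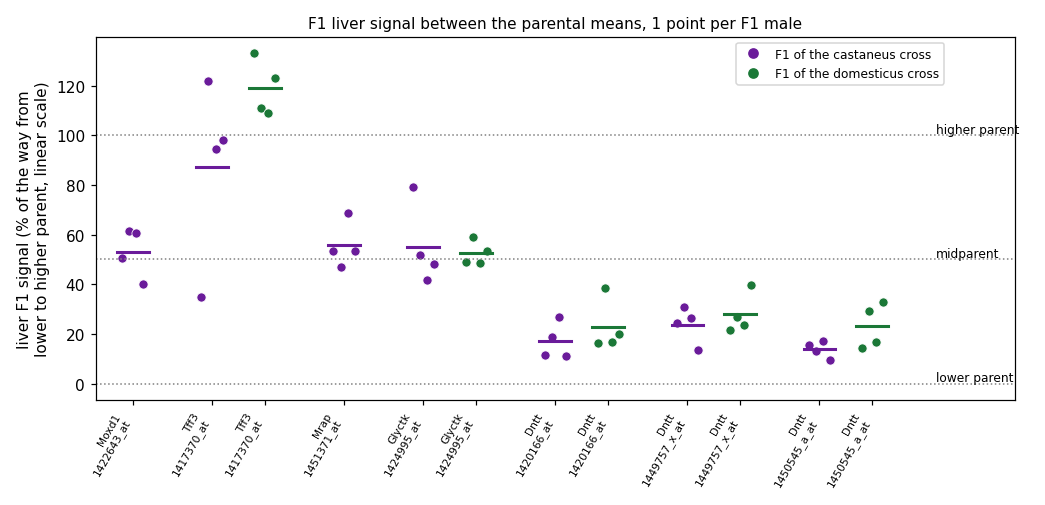
Liver F1 signal as a percent of the way from the lower to the higher parental mean on the linear scale, with 1 point per F1 male and a bar at the mean of 4, castaneus cross left of domesticus cross. Moxd1 in the domesticus cross (5.75% to 396%) is not drawn. The drawn means of Moxd1, Mrap and Glyctk lie between 52.5% and 55.6%, with single males from 40.3% to 79.2%, those of Tff3 are 87.3% and 119%, and every Dntt male is at or below 39.7%.

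The direction of the cross did not change the members' liver signal by a call. For the musculus-mother F1 minus the musculus-father F1, 0 of 8 tested probe sets were called in each cross by limma, where 0.0888% (domesticus cross) and 0.037% (castaneus cross) of all probe sets were. At an unadjusted p under 0.05 there were 1 of 8 in the domesticus cross, beside 2599 of all 27022 probe sets, Mrap 1451371_at at -0.52 (95% interval -0.99 to -0.05), and 2 of 8 in the castaneus cross, beside 948 of 27022, Glyctk 1424994_at at -1.10 (-1.93 to -0.27) and Glyctk 1424995_at at 0.48 (0.02 to 0.93). The 2 Glyctk probe sets pointed opposite ways. For Moxd1 the intervals were wide, from -0.84 to 3.22 in the domesticus cross and from -1.86 to 2.20 in the castaneus cross, so a reciprocal difference of several fold was not detectable with 2 males per F1. For Tff3 the differences were 0.07 and -0.51 and for Dntt 1449757_x_at -0.33 and 0.52 in the domesticus and castaneus cross.

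**Figure D5:**
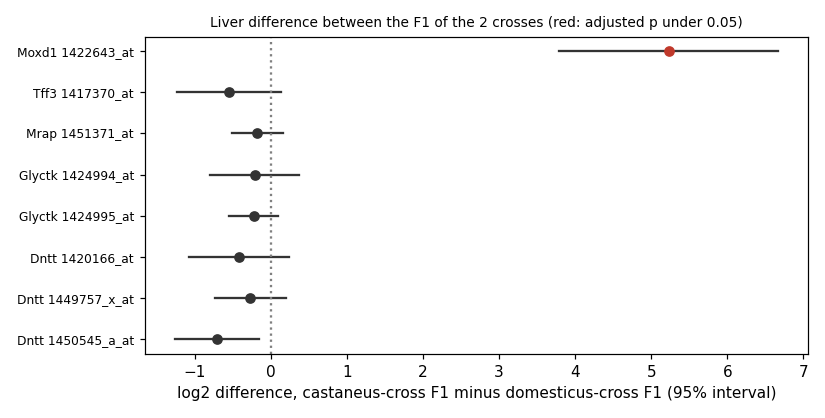
Log2 difference in liver between the F1 of the castaneus cross and those of the domesticus cross for the 8 tested probe sets, with 95% intervals and a red point where the adjusted p is under 0.05. Moxd1 stands at 5.23 and the 7 others between -0.71 and -0.18.

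The other genes of the members' pathways are given beside the 6.55% (castaneus minus musculus) and 6.17% (domesticus minus musculus) of all liver probe sets called. Of 8 tested genes of copper monooxygenases and catecholamine metabolism, 0 were called in castaneus against musculus and 1 was lower in domesticus, Maoa, a monoamine oxidase, at -0.97 ± 0.152 (limma adjusted p = 0.00177). Of 6 tested trefoil and mucosal secretion genes, and of 6 of the melanocortin system, 0 were called in either comparison. Of 7 tested genes of V(D)J recombination and end joining, the process Dntt serves, 0 were called as well. These lists had medians of -0.22, -0.52, -0.12 and -0.56 in castaneus and -0.43, 0.00, -0.00 and 0.04 in domesticus, beside -0.06 and -0.05 over all tested probe sets.

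The list around Glyctk had 3 calls in each comparison. Of 14 tested genes of serine, glycerate, glyoxylate and fructose metabolism, 3 fell in castaneus and none rose: Srr, serine racemase, by -2.07 ± 0.256 (adjusted p = 0.000321), Tkfc, the triokinase of fructose breakdown, by -1.31 (adjusted p = 0.00737) and Shmt1, a serine hydroxymethyltransferase, by -0.87 (adjusted p = 0.0296). In domesticus, Srr (-1.03, adjusted p = 0.0308) and Shmt1 (-0.79, adjusted p = 0.0486) fell and Agxt2, an alanine-glyoxylate aminotransferase, rose by 0.76 (adjusted p = 0.013). The list medians were -0.00 in castaneus and 0.13 in domesticus. Both comparisons share the musculus arrays. Of 12 tested liver genes known to differ by sex in mice, 3 rose and 1 fell in castaneus and 3 rose and 3 fell in domesticus, with medians of 0.51 and 0.20.

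Markers of cells that use these genes elsewhere were also compared. The 4 adipocyte genes summed to 1284 to 1439 in castaneus, where Mrap was at the floor, 1100 to 1262 in domesticus and 1345 to 1900 in musculus. Among them Fabp4 (755 to 1533) and Retn (93 to 324) lay above 31 in every liver, and Lep lay below 31 in every liver. The 5 adrenal cortex genes summed to 583 to 655 in castaneus, 737 to 898 in domesticus and 890 to 1283 in musculus. The domesticus and musculus sums overlapped, and the F1 sums ran from 521 to 1541. Of 4 tested adrenal cortex genes, 0 were called in either parental comparison. Their part in the Mrap difference was not tested. The 6 bile duct genes summed to 560 to 761 in castaneus, 406 to 583 in domesticus and 587 to 672 in musculus, and to 319 to 935 in the F1. The 6 genes of intestine and stomach mucosa summed to 1317 to 1456 in castaneus, 1797 to 1984 in domesticus and 1509 to 1599 in musculus. Of the 6 bile duct genes, 1 lay at or above 31 on all 14 livers. The part of bile duct or mucosa content in the Tff3 difference was not tested.

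The summed signals of Kupffer and stellate cell markers were higher in castaneus and domesticus than in musculus, as were Moxd1 and Glyctk 1424995_at. The 6 Kupffer cell genes summed to 14233 to 17824 in castaneus, 11233 to 12270 in domesticus and 7348 to 7722 in musculus. The 5 stellate cell genes summed to 9105 to 10710 in castaneus, 7477 to 10258 in domesticus and 4191 to 4976 in musculus. Bright genes weigh most in such sums. Against musculus, the Kupffer list had medians of 0.99 in castaneus and 0.67 in domesticus, with 1 and 0 of 5 tested genes called. The stellate list had medians of 0.64 and -0.02, with 1 and 2 of 5 called. Over all probe sets 6.55% and 6.17% were called. Dcn, a matrix proteoglycan, was higher than in musculus by 1.48 in castaneus (adjusted p = 0.00396) and by 1.34 in domesticus (adjusted p = 0.00718). Csf1r, a macrophage receptor, was called in castaneus (1.39, adjusted p = 0.0156) and Lrat, a retinol-storing enzyme, in domesticus (1.89, adjusted p = 0.00185). In the F1 the Kupffer sums were 5016 to 10626 and the stellate sums 4291 to 8222. Their part in the members' differences was not tested.

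Other genes had liver patterns much like those of the members, by Pearson's r of log2 signals over the 14 livers, which share their genotypes. Car2, a carbonic anhydrase, followed Moxd1 (r = 0.927), with means of 7585 in castaneus, 488.5 in domesticus and 169.5 in musculus, and so did the pseudogene Serpina4-ps1 (r = 0.939). Art3 (r = 0.937) and Ppcdc (r = 0.927), an enzyme of coenzyme A synthesis, followed Tff3. Ces2e, a carboxylesterase, followed Mrap most closely (r = 0.975), with means of 34 in castaneus, 2164.5 in domesticus and 2566 in musculus, and then Mrpl1 of the mitochondrial ribosome (r = 0.973). Ranbp2 (r = 0.978) and the chaperonin subunit Cct6a (r = 0.972) followed Glyctk 1424995_at, and Lsm14a (r = 0.963) and Cdhr2 (r = 0.962) followed Dntt 1449757_x_at. Each r is for 1 probe set of a gene. Other probe sets of Serpina4-ps1, Art3, Ppcdc, Mrpl1, Ranbp2, Cct6a and Lsm14a were not compared. Cdhr2, a cadherin of the intestinal brush border, had means of 11 in castaneus, 30.5 in domesticus and 874.5 in musculus, and 370.5 in the castaneus-cross F1.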

How the data were processed

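The authors deposited 1 linear intensity, a MAS5 signal per the submitters' processing notes, for every probe set and array. Neither detection calls nor a MAS5 version were used here. The 2% trimmed array means lay between 496.87 and 498.59, so arrays had been scaled alike. MAS5 gives each probe set 1 value, so a sequence difference under the probes can lower a signal. No sequence was used here. Signals were taken as log2(signal + 31), and the lowest 40% of probe sets by mean in a tissue were left untested (a mean signal of 82.4 in liver). A limma 3.58.1 model (R 4.3.3) was run per tissue over its 14 arrays with genotype as factor, an intensity trend and 7 residual degrees of freedom. Tissue dependence was fitted over 42 arrays with the male as a random block (correlation 0.283 for brain, 0.28 for testis, kept fixed when a male was left out). The fit was tested on simulated data. A gene in a list is its probe set with the highest liver mean. Genes of like pattern are the 2 with the highest r per leading probe set, without _x_at. Members and lists were chosen with earlier results of these data known. Alternatives were offsets of 10 and 100, quantile normalization, no filter, no trend, a replicate block and each male left out. Precision is limited by having 2 males per genotype.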

Additional observations from a re-analysis of the deposited data

Results flagged for a closer look

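Of the 2 member probe sets tested for liver minus brain, Moxd1 was called and Tff3 was not (-0.31, limma adjusted p = 0.848). Moxd1 was chosen on the livers of the parents, and that choice favours a larger difference in liver. The F1 difference of Moxd1 depended on tissue. Castaneus-cross minus domesticus-cross was larger in liver than in brain by 4.76 on the log2 scale (limma, adjusted p = 5.98e-06), from 3.79 to 5.72 over the alternatives, each of them called. Groups of 2 males are too small for a check of single outlying males.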

How the results depend on the processing

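Of 102 alternatives for the called member probe sets, 101 kept the call and its direction and 1, added once the values were known, turned: Glyctk 1424994_at in testis, described next to its count. The Moxd1 liver F1 difference ranged from 4.23 to 6.23 (adjusted p 1.71e-05 to 0.00763), and Glyctk 1424995_at in testis from 1.96 to 3.19 in castaneus and from 1.83 to 3.05 in domesticus. Counts of member calls moved as follows. With the castaneus x musculus F1 alone, the testis F1 difference had 0 calls in place of 1, and Glyctk 1424994_at turned from -0.77 to 0.17. For castaneus minus musculus in brain, Moxd1 was called (1 in place of 0) with an offset of 10, with no trend and with the replicate block (adjusted p = 0.0419), and the count ranged from 0 to 1 with a male left out. For castaneus minus musculus in testis, Glyctk 1424994_at was also called (2 in place of 1) with an offset of 100 and with no trend, and the count ranged from 1 to 2 with a male left out. For liver minus testis, 0 of 4 tested member probe sets were called in the main fit, where 14.4% of 22190 probe sets were. Moxd1 was called without the filter (5.28), with testis signals of 5 to 25 on all 14 arrays. The count also moved through Dntt 1450545_a_at (-0.93) without domesticus x musculus F1 male 1. The causes were not tested. Deviations of males with the same replicate number gave 21 correlations per tissue. Above 0.1 were 10 in liver (median 0.0979), 13 in brain (-0.466 to 0.561, median 0.132) and 10 in testis (median 0.0953). Below -0.1 were 5, 4 and 4. They leaned positive in each tissue, and the source of that lean was not tested. Apart from Moxd1 in brain, the replicate block changed no member call. The count of all probe sets behind the liver F1 difference was 932, and 336 to 1085 under the alternatives. Of 130 alternatives for dosage 15 moved it beyond the replicate spread, and of 54 for the parental liver differences 16 did (Moxd1 in castaneus 10.2 with an offset of 10 and 7.68 with 100).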
